A study of Mus musculus with 16 samples.

Results

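Glutamate receptors and the proteins that travel with them were measured as mRNA in the cortex of 5xFAD mice fed rapamycin or a vehicle diet. The genes were taken by name from the table of gene counts: the pore-forming subunits of AMPA (Gria), kainate (Grik), NMDA (Grin) and delta (Grid) receptors, the metabotropic receptors (Grm), 6 transmembrane AMPA receptor regulatory proteins (Cacng), Neto1, Neto2, Cnih2, Cnih3, and the scaffold genes Dlg4, Homer1 and Shank1 to Shank3. Of 42 genes with such names, 41 had at least 10 read pairs in at least 4 of the 16 libraries, out of 47593 genes in the table and 16553 that were tested. The gene left out was Grm6, the receptor of retinal bipolar cells, with 1 read pair in 1 library. The name pattern also took in Grin1os, a transcript on the opposite strand of Grin1, which is not a receptor.

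All mice carried the 5xFAD transgenes, human genes with familial Alzheimer's disease mutations driven in neurons by the Thy1 promoter, as heterozygotes on a mixed C57BL/6 and SJL background. Mice without the transgenes were not analysed here. The diets, a rapamycin chow or the same chow with the empty capsule carrier, ran from 2 to 5 months of age, and the 4 groups were vehicle females (FC), rapamycin females (FR), vehicle males (MC) and rapamycin males (MR), each with 4 libraries. The labels call these biological replicates and the study's text also speaks of pooled cortical samples, so p values measure the spread between libraries. Of the 16 libraries, 11 belonged to batch 1 of the labels and 5 to batch 2 (FC4, FR4, FR5, MC4 and MR4).

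Several libraries stood apart before any receptor gene was considered. The library labelled MR4 had 0 read pairs on 4 Y-linked genes and Xist at 532 CPM (counts scaled to library size), where the other 7 male libraries had 1915 to 2231 Y-linked read pairs and Xist at 0.0565 to 1.01 CPM. Library MC4 held choroid plexus marker genes at a summed 2045 CPM, against 16.9 to 341 CPM in the other 15. Libraries FR1, FR2 and MR2 had the lowest exon length slopes, which measure how a library's log2 CPM deviates with the exon length of the genes (-0.121, -0.127 and -0.122, against -0.0333 to 0.1005 elsewhere). The same 3 libraries had the highest shares of read pairs on mitochondrially encoded genes, 6.88%, 6.98% and 6.99%, against 2.64% to 5.47% elsewhere. Counts for both sexes together are therefore also given without these libraries. Depth was 16393501 to 20593089 read pairs per library, and summed glutamatergic neuron markers, 14 genes, lay between 2464 and 4036 CPM in every library.

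As background, glutamate is the main excitatory transmitter of the cortex. AMPA receptors carry the fast current, NMDA receptors pass calcium when glutamate binds a depolarized cell, kainate receptors act before and after the synapse, and delta receptors bind synaptic organizers more than they pass current. Metabotropic receptors signal through G proteins. TARPs, cornichons and Neto proteins are auxiliary subunits that alter the trafficking and gating of the pore, and Dlg4 (PSD-95), Homer1 and the Shank proteins hold the receptors in the postsynaptic density.

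Start-site sequence could be shown for some of the genes that changed. RefSeq windows on GRCm38.p6, 250 bases before to 50 bases after the start of the gene, were found for 26 of the 41 genes and for 4 of the 10 genes that fell (Gria2, Grik3, Grm8 and Neto2). The windows of Grik3 (chr4:125490446-125490745, plus strand), Grm8 (chr6:28135097-28135396, minus strand) and Cnih2 (chr19:5098472-5098771, minus strand) are printed because Grik3 and Grm8 fell by over 1.5-fold with rapamycin and Cnih2 was the gene that rose. Each runs 5′ to 3′ along the gene, and capitals mark every GC box (GGGCGG or its reverse CCGCCC, the letters that Sp1 proteins bind).
Grik3: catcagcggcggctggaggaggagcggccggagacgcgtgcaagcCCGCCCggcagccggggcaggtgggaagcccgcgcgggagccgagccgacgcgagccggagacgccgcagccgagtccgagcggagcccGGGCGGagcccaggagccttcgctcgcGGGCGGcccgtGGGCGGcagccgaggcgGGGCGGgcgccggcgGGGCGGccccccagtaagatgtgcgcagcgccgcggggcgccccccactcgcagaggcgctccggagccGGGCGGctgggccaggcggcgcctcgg
Grm8: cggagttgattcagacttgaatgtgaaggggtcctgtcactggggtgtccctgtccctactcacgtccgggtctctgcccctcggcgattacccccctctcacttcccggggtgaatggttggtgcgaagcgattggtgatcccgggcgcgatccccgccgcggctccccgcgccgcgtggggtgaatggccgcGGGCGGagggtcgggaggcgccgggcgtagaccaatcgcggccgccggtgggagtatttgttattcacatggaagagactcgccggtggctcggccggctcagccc
Cnih2: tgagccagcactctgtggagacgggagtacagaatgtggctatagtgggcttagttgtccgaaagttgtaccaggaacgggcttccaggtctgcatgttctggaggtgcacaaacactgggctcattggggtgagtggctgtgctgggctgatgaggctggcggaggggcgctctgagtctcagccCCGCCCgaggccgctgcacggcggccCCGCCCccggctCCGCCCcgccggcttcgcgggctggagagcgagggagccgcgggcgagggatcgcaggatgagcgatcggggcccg
The Grik3 window held 50 CpG dinucleotides, the Grm8 window 33 and the Cnih2 window 25, beside a median of 18.5 over the 26 members and 7 over 32851 RefSeq windows. GC boxes, searched on both strands, were in 14 of 26 member windows (53.8%) and in 35.7% of all windows, and in Grik3, Grm8 and the rising Cnih2, while the windows of Gria2 and Neto2, which also fell, held none. The letters of the cAMP response element, TGACGTCA, were in 0 of 26 member windows and in 1.79% of all. The E-box CACGTG was in 2 member windows, Grin1 and Cnih3, or 7.69%, and in 7.15% of all. The NRF-1 core GCGCATGC was in 0 member windows and 2.71% of all, and TATAAA was in 1 member window, that of Grin3b, and 13.6% of all. These matches describe letters in a window and are not binding sites.

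Levels between genes were compared as CPM per kb of exon. Among scaffolds and auxiliary subunits, Dlg4 had the highest mean, 153 CPM per kb over the 16 libraries, followed by Cnih2 at 147, and their ranges overlapped (135 to 194 and 107 to 209). The TARP genes spread widely, from Cacng7 at 80.7 and Cacng3 at 44.2 to Cacng5 at 2.31 CPM per kb. Gria1 led the AMPA subunits at 56.1, Grik5 the kainate subunits at 51.8 and Grin1, the subunit every NMDA receptor needs, its family at 40.8 CPM per kb. At the low end stood Grin3b (0.113 CPM per kb) and Grm8 (1.72). Grin3b had under 1 CPM in each library, so its values rest on few read pairs.

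**Figure D1:**
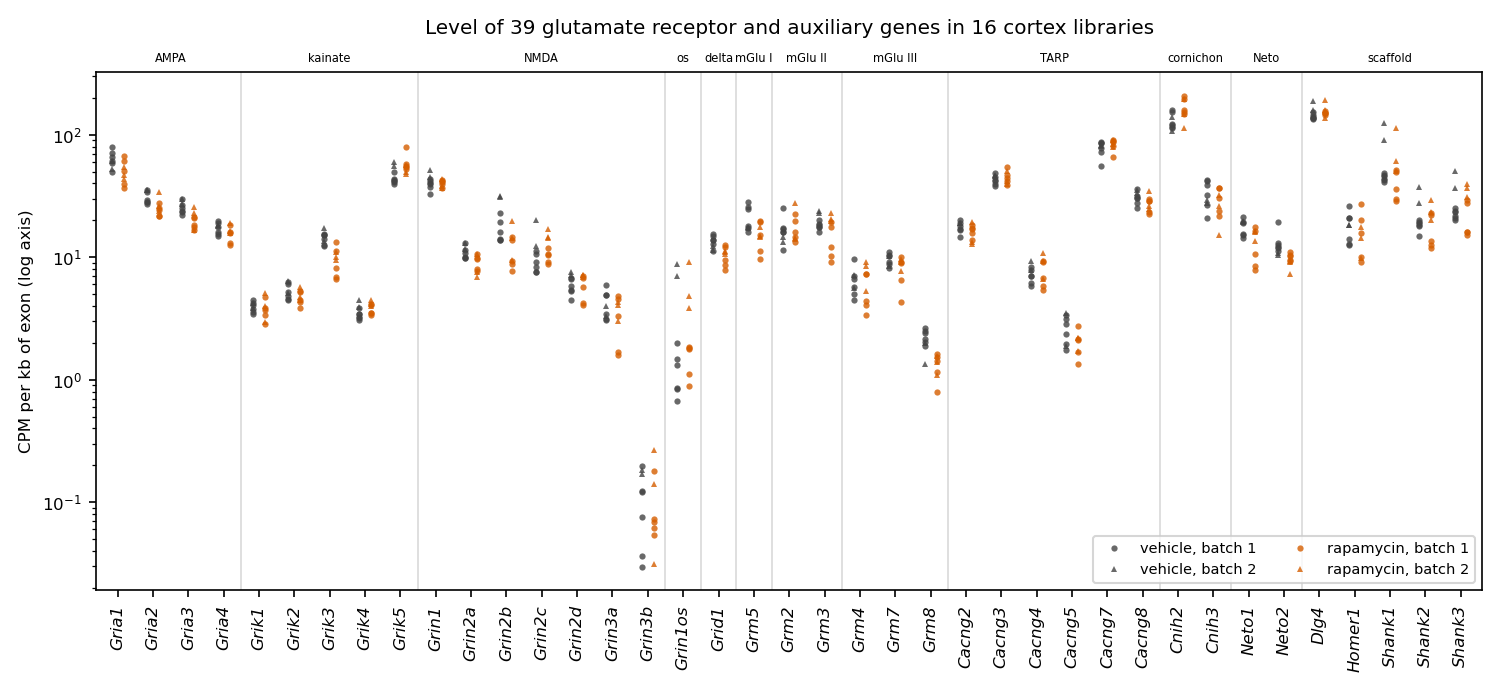
Level of 39 of the 41 genes in each library as CPM per kb of exon, on a log axis, with genes grouped by role (os is Grin1os), vehicle libraries in grey, rapamycin libraries in orange, batch 1 as circles and batch 2 as triangles. Levels span from Grin3b to Dlg4 and Cnih2, and the 7 highest vehicle libraries of Grm8 lie above the rapamycin libraries.

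With both sexes in the fit, rapamycin was compared with vehicle in a fit with terms for sex, batch and diet, and 11 of 41 genes had an adjusted p under 0.05 (edgeR's quasi-likelihood test, Benjamini-Hochberg over 16553 genes). Of these, 10 fell, among them Grik3, Grm8, Grin2b, Gria3, Neto2, Gria2, Grid1, Grin2a and Neto1. They made up 24.4% of the members, where 6.86% of all genes tested fell. Cnih2 rose, 1 gene or 2.44% of the members, where 6.46% of all genes rose. A fold change of at least 1.5 as well was met by 3 genes, Grin2b, Grm8 and Grik3, where 1.57% of all genes fell by that much. The median log2 fold change over the 41 genes was -0.23, and 31 of them lay below 0, beside a median of 0.0153 over all genes. In bulk tissue, fewer cells of a type and less RNA per cell cannot be told apart.

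These counts, like the share of all genes called, depended on a few libraries. Without FR1, FR2 and MR2, which were chosen after the data were seen, 0 of 41 genes were called (edgeR, adjusted p at least 0.156), 8 were lower and 1 higher at an unadjusted p under 0.05, and the median log2 fold change of the members was -0.0632. In that fit 1 gene of all those tested was called. The share of all genes at an unadjusted p under 0.05 was not counted there, so the 8 and the 1 are not read as results. Without MC4 and MR4 the count was 6, all lower, among them Gria3, Grid1, Grik3, Grin2b and Grm8, where 3.51% of all genes fell. When single libraries were left out, the count was 5 without FR2, 6 without FR1 or MC4 and 7 without FC3 or MR4, and Gria3, Grik3, Grin2b and Grm8 were called in each of the 16 such fits.

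**Figure D2:**
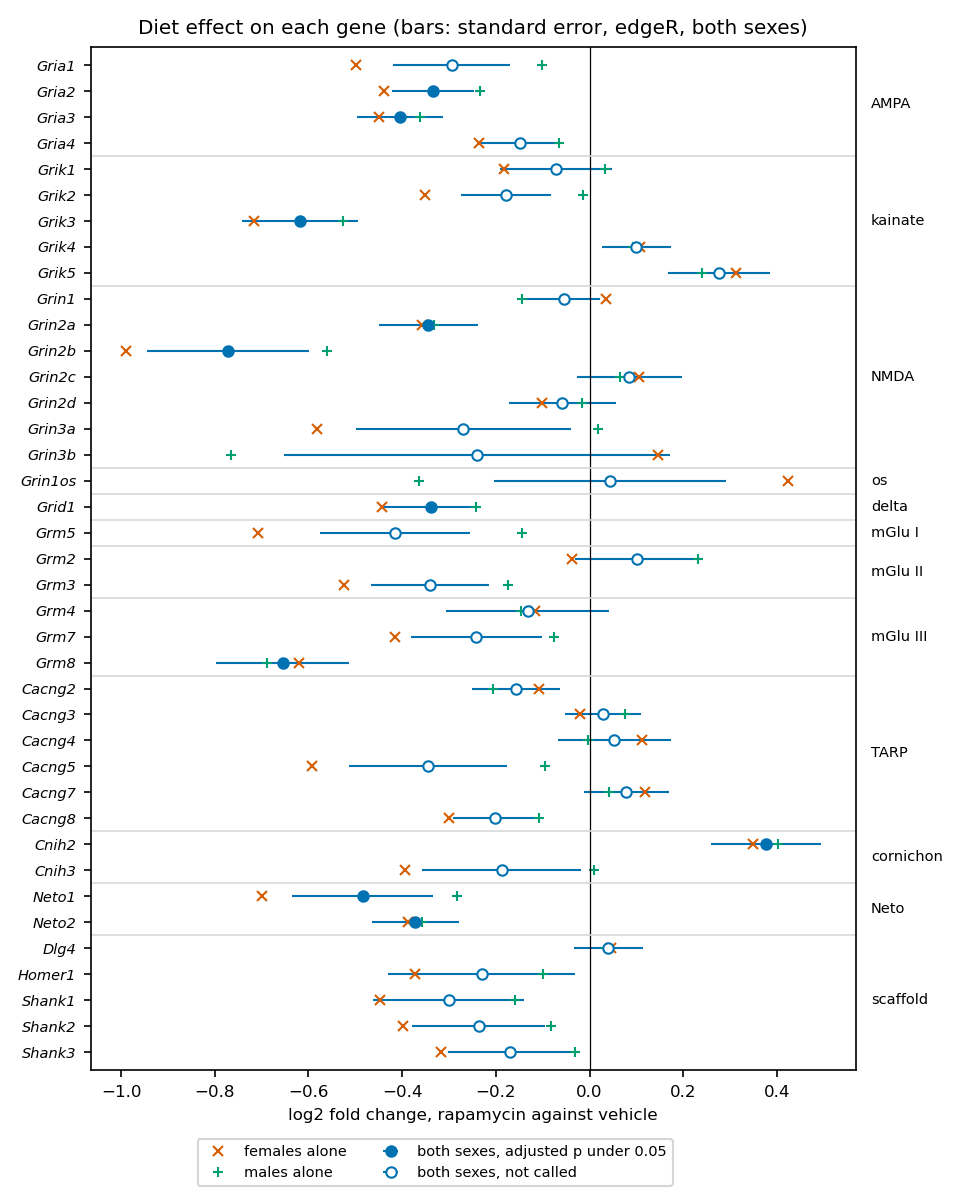
Log2 fold change of 39 of the 41 genes, rapamycin against vehicle, with both sexes together as circles (bar, standard error from edgeR; filled, adjusted p under 0.05), females alone as crosses and males alone as plus signs, with genes grouped by role. The largest fall is that of Grin2b (-0.77) and the one filled circle to the right of 0 is Cnih2 (0.38).

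Among the NMDA receptor subunits, 2 of 7 fell, Grin2b and Grin2a. Grin2b (chr6:135713233-136173511, minus strand, GRCm38) encodes GluN2B, the subunit that gives NMDA receptors slow decay and is high in development. In FC1 to FC4 it was at 484, 344, 573 and 770 CPM, and in MC1 to MC4 at 347, 341, 402 and 789. In FR1, FR2, FR4 and FR5 it was at 230, 193, 493 and 355 CPM, and in MR1 to MR4 at 363, 219, 340 and 237. Batch 2 libraries were the highest of both vehicle groups, and the diets overlapped, with 5 of 8 rapamycin libraries below the lowest vehicle library. The log2 fold change was -0.77 (SE 0.17, edgeR adjusted p = 0.0152), a 1.71-fold fall. Within batch 1 it was -0.63 (edgeR adjusted p = 0.0615) and within batch 2 -1.24 (adjusted p = 0.667, 2 vehicle against 3 rapamycin libraries).

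Grin2a (chr16:9567898-9995560, minus strand), the subunit GluN2A that takes over in the adult cortex, was at 175 to 236 CPM with vehicle (median 199) and 123.3 to 192 with rapamycin (median 159). Its log2 fold change was -0.34 (SE 0.11, edgeR adjusted p = 0.0401), and the diets overlapped. The call was kept in 6 of 16 fits that left out 1 library (those without FC1, FR4, MC1, MC3, MR2 or MR3) and was lost with the replicate block in place of batch. Both subunits being lower, the ratio of Grin2b to Grin2a per kb was 1.79 ± 0.531 (SD, n = 8) with vehicle and 1.40 ± 0.440 with rapamycin, with overlapping ranges of 1.21 to 2.65 and 0.801 to 1.90. Grin1 was at 320 to 499 CPM with vehicle and 357 to 419 with rapamycin, with a log2 fold change of -0.06 (SE 0.08, edgeR adjusted p = 0.673). That estimate was 0.0482 within batch 1. As a share of the NMDA subunits' summed CPM per kb, Grin2b had 21.1% ± 4.70 with vehicle and 14.5% ± 3.29 with rapamycin, and Grin1 had 44.3% ± 4.58 and 48.7% ± 5.05 (SD, n = 8 libraries each). The glial and cerebellar subunit Grin2c (log2 fold change 0.08), Grin2d (-0.06), Grin3a (-0.27) and Grin3b (-0.24) were not called, with edgeR adjusted p of 0.455 to 0.770.

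Kainate subunits differed among themselves. Grik3 (chr4:125490700-125714173, plus strand), which encodes GluK3, a low-affinity subunit, fell. It was at 136, 112, 136 and 121 CPM in FC1 to FC4 and at 111, 125, 138 and 156 in MC1 to MC4. With rapamycin it was at 73.7, 59.4, 99.2 and 89.3 CPM in FR1, FR2, FR4 and FR5 and at 100.5, 61.7, 119 and 84.9 in MR1 to MR4. All but MR3 among the rapamycin libraries were below the lowest vehicle library, MC1. The log2 fold change was -0.62 (SE 0.12, edgeR adjusted p = 0.0119). Grik5, the high-affinity partner subunit GluK5, went the other way in value at 0.28 (SE 0.11, edgeR adjusted p = 0.0946), and was called within batch 1 alone. Grik1 (-0.07), Grik2 (-0.18) and Grik4 (0.10) were not called (edgeR adjusted p 0.218 to 0.723). Grik5 made up 62.9% ± 2.55 of the kainate subunits' CPM per kb with vehicle and 71.8% ± 4.94 with rapamycin, and Grik3 made up 19.6% ± 2.04 and 12.2% ± 3.02 (SD, n = 8).

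Both Neto genes, whose proteins are auxiliary subunits of kainate receptors, also fell. Neto2 (chr8:85636588-85690973) was at 58.5 to 108 CPM with vehicle (median 67.3) and 40.99 to 61.9 with rapamycin (median 53.0), with a log2 fold change of -0.37 (SE 0.09, edgeR adjusted p = 0.0202). In this gene 7 of 8 rapamycin libraries lay below the lowest vehicle library, and the call was lost without FR2 or MC4. Neto1 (chr18:86394952-86501897), which also binds NMDA receptors, was at 50.7 to 74.8 CPM with vehicle (median 68.0) and 27.6 to 61.8 with rapamycin (median 52.3). Its log2 fold change was -0.48 (SE 0.15, edgeR adjusted p = 0.0422), a call kept in 5 of 16 fits that each left out 1 library (those without FR4, MC1, MC2, MR1 or MR3).

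Of the AMPA receptor subunits, Gria3 and Gria2 fell and Gria1 and Gria4 were not called. Gria3 (chrX:41400854-41678601), the subunit GluA3, was at 265, 237, 295 and 269 CPM in FC1 to FC4 and 229, 250, 216 and 293 in MC1 to MC4. It was at 165, 172, 251 and 226 CPM in FR1, FR2, FR4 and FR5 and 182, 205, 211 and 163 in MR1 to MR4. Within batch 1 every rapamycin library was below every vehicle library, which held for 2.37% of all genes. The same was so within batch 2, with 2 vehicle and 3 rapamycin libraries. There it also held for genes that were not called, among them Grin1 (log2 fold change -0.06) and Homer1. The log2 fold change was -0.40 (SE 0.09, edgeR adjusted p = 0.0153). Gria2 (chr3:80681450-80802835), the subunit that keeps AMPA receptors impermeable to calcium, was at 425 to 552 CPM with vehicle (median 490) and 334 to 529 with rapamycin (median 387). Its log2 fold change was -0.33 (SE 0.09, edgeR adjusted p = 0.0233), lost without FR1, FR2 or MC4. Per kb of exon Gria1 was the highest AMPA subunit, though its mean CPM lay below that of Gria2 (376 against 491 with vehicle). Gria1 was at 299 to 478 CPM with vehicle and 220 to 403 with rapamycin (log2 fold change -0.29, SE 0.13, edgeR adjusted p = 0.121). Gria4 stood at -0.15 (edgeR adjusted p = 0.260). The makeup of the family was close in value between diets, with Gria1 at 45.2% ± 3.59 and 44.6% ± 5.03 of the summed CPM per kb and Gria2 at 23.1% ± 1.79 and 23.0% ± 2.78 (SD, n = 8).

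AMPA receptor auxiliary genes gave a single call. Cnih2 (chr19:5092871-5098418), a cornichon that slows AMPA receptor closing, was at 197, 149, 142 and 172 CPM in FC1 to FC4 and 141, 151, 190 and 132 in MC1 to MC4. It was at 258, 181, 140 and 242 CPM in FR1, FR2, FR4 and FR5 and 243, 191, 196 and 181 in MR1 to MR4. FR2, FR4, MR2, MR3 and MR4 sat within the range of the vehicle libraries, so the diets overlapped. The log2 fold change was 0.38 (SE 0.12, edgeR adjusted p = 0.0431), kept in 5 of 16 fits that left out 1 library (those without FC1, FC4, FR4, MC3 or MR3) and lost with the replicate block in place of batch. Cnih3 stood at -0.19 (edgeR adjusted p = 0.482). None of the 6 TARP genes was called (edgeR, adjusted p 0.134 to 0.843; 1, Cacng8, at an unadjusted p under 0.05), and their log2 fold changes ran from -0.34 for Cacng5 to 0.08 for Cacng7.

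Among the delta receptor genes, Grid1 fell. Grid1 (chr14:34819825-35583379) was at 69.1 to 94.1 CPM with vehicle and 48.3 to 77.3 with rapamycin (log2 fold change -0.34, SE 0.10, edgeR adjusted p = 0.0386), and was called in 6 of 16 fits that left out 1 library (those without FC2, FR4, FR5, MC4, MR1 or MR3). Within batch 1, with 6 vehicle and 5 rapamycin libraries, every rapamycin library was below every vehicle library in 4 of 41 members, Gria3, Grm8 and Neto2 among them, where this held for 2.37% of all genes. Grid1 was not among the 4, as its diets overlapped within batch 1.

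A single metabotropic receptor gene was called by edgeR with both sexes in the fit. More were called by DESeq2 with the same terms, among them Grm5 (adjusted p = 0.0418) and Grm3, both lower. By that test 9.82% of all genes fell. Grm8 (chr6:27275119-28135178), a presynaptic receptor that inhibits release, was at 13.2 to 26.0 CPM with vehicle (median 20.8) and 7.83 to 16.02 with rapamycin (median 13.8). FC4, at 13.2 CPM, was the vehicle library that lay among the rapamycin libraries. The log2 fold change was -0.65 (SE 0.14, edgeR adjusted p = 0.0140), a 1.57-fold fall. Grm5, a group I receptor that activates phospholipase C, had a log2 fold change of -0.42 (SE 0.16, edgeR adjusted p = 0.0888). It was at 164 to 290 CPM with vehicle and 99.4 to 202 with rapamycin, with overlap. Of the group II receptors, Grm3, abundant in astrocytes, was at -0.34 (edgeR adjusted p = 0.0767) and Grm2 at 0.10 (adjusted p = 0.645). Grm4 (-0.13) and Grm7 (-0.24) were not called (edgeR adjusted p 0.648 and 0.257).

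No scaffold gene was called. Dlg4 was at 674 to 944 CPM with vehicle and 684 to 964 with rapamycin (log2 fold change 0.04, SE 0.07, edgeR adjusted p = 0.755). Homer1, whose short form is induced by activity, was at 132 to 276 CPM with vehicle and 96.7 to 284 with rapamycin (log2 fold change -0.23, SE 0.20, edgeR adjusted p = 0.466), and its forms were not counted apart. Shank1 (-0.30), Shank2 (-0.24) and Shank3 (-0.17) had edgeR adjusted p of 0.219 to 0.409.

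**Figure D3:**
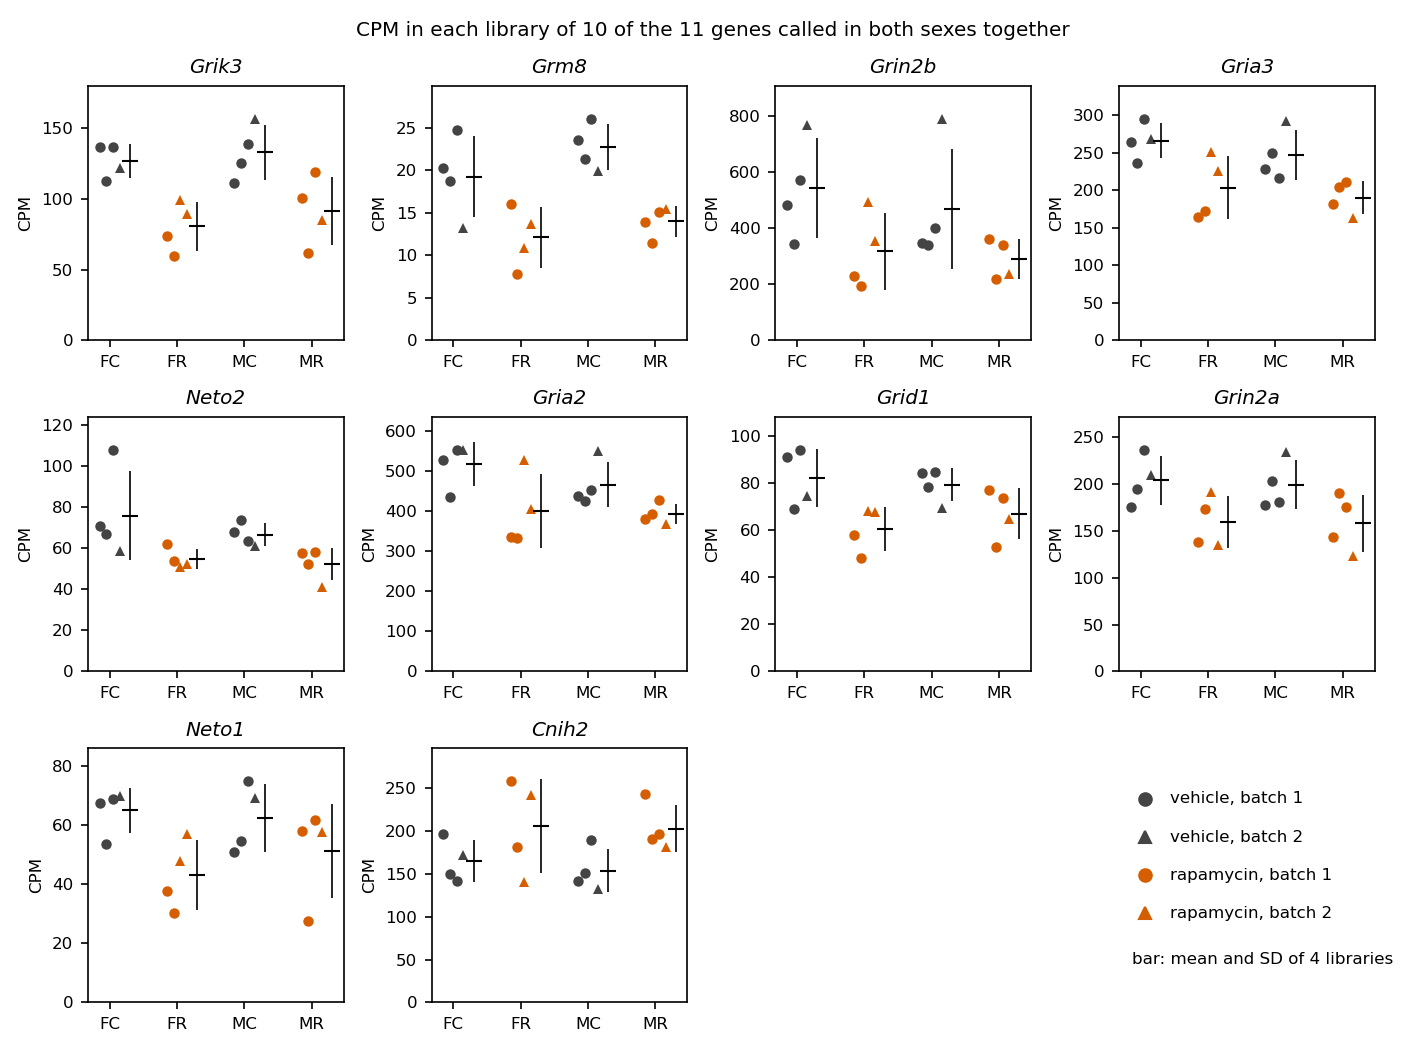
CPM in each library of 10 of the 11 genes called in both sexes together, in the order of their p, by group (FC, FR, MC, MR), with vehicle in grey, rapamycin in orange, batch 1 as circles, batch 2 as triangles and a bar for the mean and SD of 4 libraries. Rapamycin group means are lower in the first 9 panels and higher in the last, Cnih2, where FR2, FR4, MR2, MR3 and MR4 lie within the range of the vehicle libraries.

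The genes that fell were long. Their median exon length was 9878.5 bases, against 5243 for the 30 members not called, 5886 for all 41 and 3766 for all genes tested. Across the 41 members the log2 fold change had a Spearman correlation of -0.54 with log2 exon length, and across all 16553 genes of -0.43. All genes share the 16 libraries, so these are descriptions. Among all genes, 27.4% of those over 10000 bases fell and 1.21% of those of 1000 to 2000 bases. Of members over 10000 bases 4 of 9 fell, of those of 8000 to 10000 bases 3 of 6 (19.8% of all genes), and of those of 2000 to 4000 bases 1 of 11 (2.25%). Cnih2, the gene that rose, has 1237 bases, and in its class 15.8% of all genes rose. GC content, taken from the longest GENCODE transcript of each gene, also went with the change (Spearman 0.57 over 41 members, 0.15 over 15988 genes with a known GC content).

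The exon length slope of the libraries itself differed by diet, being lower with rapamycin by 0.0977 within batches (change of -0.0977, exact permutation of diet labels within batches, 4620 assignments, two-sided p = 8.66e-04, Benjamini-Hochberg adjusted p = 0.0113 over 13 measures of the libraries). The mitochondrial share was higher by 1.69 percentage points (exact permutation p = 0.00606, adjusted p = 0.0394). The other 11 measures were summed cell type and region markers, with exact permutation adjusted p of 0.343 to 0.959. Tested gene by gene, 7 of 12 choroid plexus markers fell (median log2 fold change of the list -1.77) and 2 of 10 astrocyte markers, Ndrg2 and Gjb6, rose (median 0.25). Of the endothelial markers 1 of 8 rose and 1 fell, of the thalamus markers 1 of 9 fell, and in 6 other lists 0 genes were called by edgeR. Their part in the changes of the receptor genes was not tested. Summed glutamatergic markers were 3407 ± 201 CPM with vehicle and 3406 ± 529 with rapamycin (SD, n = 8), and 2 of the 14 genes fell, among them Bcl11b. With offsets that remove each library's trend with exon length, 3 members were called, all lower, Grik3 (log2 fold change -0.48, SE 0.10, edgeR adjusted p = 0.0203), Grin2b (-0.47, SE 0.12, adjusted p = 0.0320) and Neto2 (-0.31, SE 0.09, adjusted p = 0.0461), where 2.82% of all genes fell. In that fit the values of Gria2 (-0.09) and Grin2a (-0.07) were near 0, those of Neto1 (-0.51) and Grm8 (-0.48) were not, and Gria3 was at -0.23, Grid1 at -0.26 and Cnih2 at 0.16, where its adjusted p was 0.396 by edgeR. With the slope or the mitochondrial share of each library as a covariate, 0 members and 0 of all genes were called by edgeR. At an unadjusted p under 0.05, 2 members were lower with the slope, and 7 lower and 2 higher with the share. How many of all genes passed that unadjusted threshold was not counted in these fits, so these member numbers are not read as results. Diet and slope moved together across the libraries, and their part in the falls cannot be told apart by these fits.

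**Figure D4:**
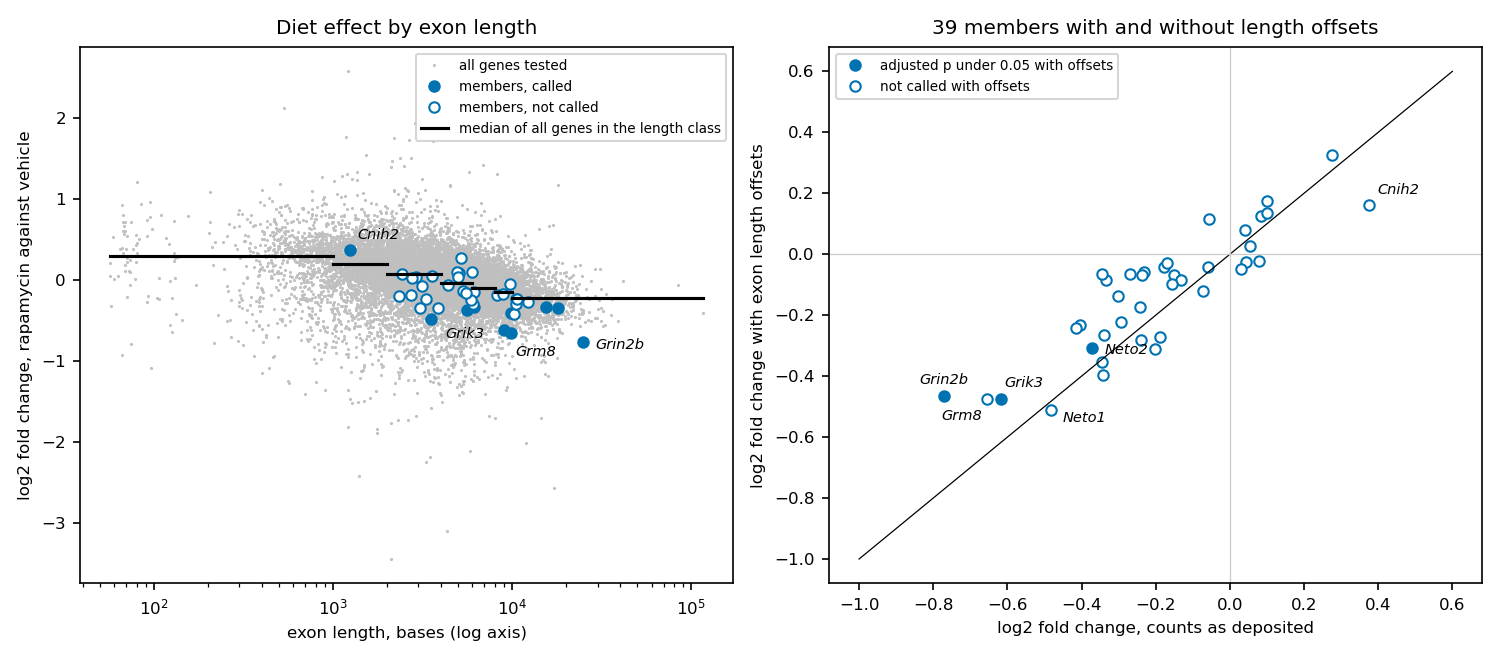
Left, log2 fold change of rapamycin against vehicle over exon length (log axis) for all genes tested (grey), the called members (filled) and other members (open, 39 members in all), with the median of all genes in each length class as a line, which declines from short to long genes. Right, log2 fold change of 39 of the 41 members with exon length offsets against that from the counts as deposited, where filled points are called with offsets (Grik3, Grin2b and Neto2) and the line marks equal values.

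In females alone, 0 of 41 genes were called by edgeR (smallest adjusted p = 0.0694, Grin2b and Grik3), where 0.0121% of all genes were. At an unadjusted p under 0.05, 18 members were lower and 0 higher, where 23.1% of all genes passed in either direction, and the median log2 fold change of the members was -0.36. The estimates were -0.99 for Grin2b (SE 0.25), -0.72 for Grik3 (SE 0.18), -0.71 for Grm5 (SE 0.21) and -0.70 for Neto1 (SE 0.21). DESeq2 with the same terms called 11 members, all lower, where 5.52% of all genes fell by that test. The FR group holds FR1 and FR2, libraries of low exon length slope, and no female fit left out both. In males alone, 0 members were called by edgeR, where 0% of all genes were, and 7 were lower and 1 higher at an unadjusted p under 0.05, which 12.02% of all genes passed. DESeq2 called 1, which was lower, where 0.0725% of all genes fell by that test. The male estimates were -0.69 for Grm8 (SE 0.20), -0.53 for Grik3 (SE 0.17) and -0.56 for Grin2b (SE 0.24). The MR group holds the library without Y-linked read pairs.

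An interaction term asked whether the diet acted differently in females and males. No member was called (edgeR, smallest adjusted p = 0.999; 0 at an unadjusted p under 0.05; 0 by DESeq2), where 0% of all genes were. The smallest unadjusted p belonged to Grm5, whose female effect was 0.56 lower than its male effect on the log2 scale (SE 0.30, edgeR adjusted p = 0.999). Nor was any member called between vehicle females and vehicle males (edgeR, smallest adjusted p = 0.999; 0 at an unadjusted p under 0.05; 0 by DESeq2), where 0.0121% of all genes were. The estimates there ran from -0.42 for Grm4 to 0.47 for Cacng5.

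Several of these genes also differed between the batches of the labels. Between batch 2 and batch 1, 9 members were higher (19.1% of all genes were) and 1, Neto2, was lower (16.5% of all genes were), by edgeR at an adjusted p under 0.05. Grin1os had the largest difference, a log2 fold change of 2.30 (SE 0.25, edgeR adjusted p = 8.68e-06), from 1.95 to 5.77 CPM in batch 1 and 11.1 to 26.3 in batch 2 with no overlap. The 3 Shank genes were higher, Shank1 at 1.11 (SE 0.17), Shank3 at 0.90 (SE 0.14) and Shank2 at 0.71 (SE 0.15). Grin2c (0.73), Grin2b (0.64), Grm3 (0.56), Grin2d (0.38) and Grik4 (0.23) were higher too, and Neto2 was at -0.30. Grin1os (chr2:25291220-25298925, plus strand) shares 1307 bases, 45.2% of its exons, with Grin1 (chr2:25291181-25319187, minus strand), and the counting used no strand, so reads there cannot be told apart. Grin3b likewise shares 32.1% of its exon bases with Tmem259 on the other strand. The 1307 bases shared with Grin1os are 13.5% of the exons of Grin1, and the other 38 members share under 10% with other genes.

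**Figure D5:**
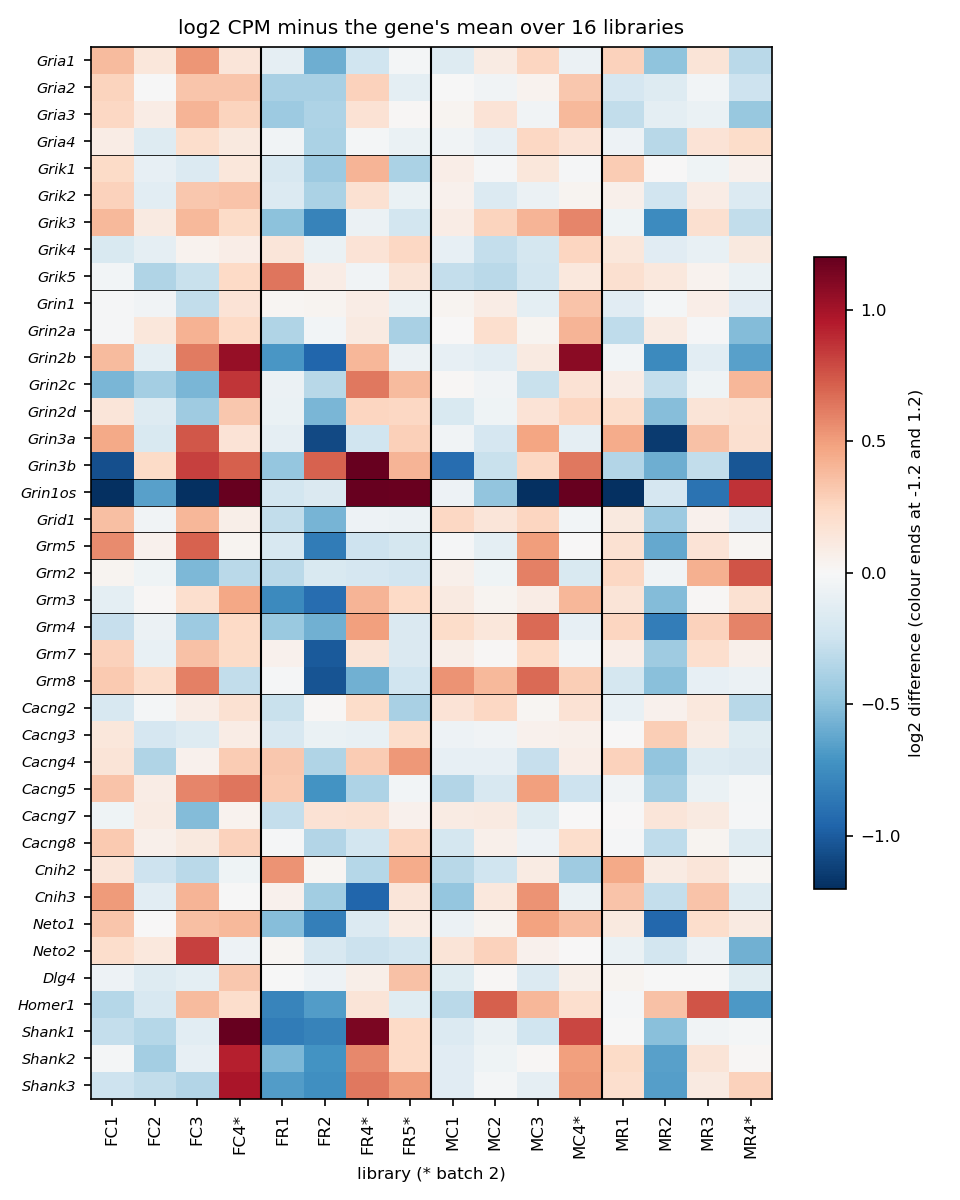
Log2 CPM of 39 of the 41 genes in each library minus the gene's mean over the 16 libraries (red higher, blue lower, colours end at -1.2 and 1.2), with genes grouped by role and libraries by group (asterisk, batch 2). FR1, FR2 and MR2 are blue for most receptor genes, and the batch 2 libraries FC4, FR4 and MC4 are red for Grin2b or the Shank genes and Grin1os.

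Other genes of the glutamate synapse were counted from lists in the same fit of both sexes, where 6.86% of all genes fell and 6.46% rose. Of 20 genes of glutamate transport and metabolism, 2 fell, the glutamine transporter Slc38a1 (log2 fold change -0.47, edgeR adjusted p = 0.0140) and the proline synthesis enzyme Aldh18a1 (-0.27). Of 26 further auxiliary proteins, 3 fell and 1 rose. Frrs1l, which acts in AMPA receptor assembly, went from 409 ± 59.9 to 278 ± 31.6 CPM (SD, n = 8; log2 fold change -0.55, SE 0.09, edgeR adjusted p = 0.00880). Grip2 (-0.39) and Olfm3 (-0.71) fell and the cornichon Cnih1 rose (0.29). Of 40 postsynaptic scaffold and signalling genes, 8 fell, among them phospholipase Plcb1 (-0.52), Dlgap2 (-0.60), the inositol trisphosphate receptor Itpr1 (-0.63) and Rasgrf1 (-0.38). Of 28 synaptic organizers, 7 fell, among them the latrophilins Adgrl2 (-0.50) and Adgrl3 (-0.72), Lrrtm2 (-0.42) and the neurexin Nrxn3 (-0.39). The medians of the lists were -0.05, -0.00195, -0.14 and -0.17 in that order, beside -0.23 for the receptor and auxiliary genes. The median exon lengths of the lists were 4357.5, 3668, 7581 and 5017 bases.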

How the data were processed

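Cortical RNA of 16 libraries was sequenced in pairs. The authors deposited counts of read pairs per gene, not normalized, made with FastQC 0.11.9, Trimmomatic 0.39, HISAT2 2.2.1 on GRCm38 (mm10) and featureCounts 2.0.3, and per the file headers these counts ignored strand and summed exons by gene name. Exon length in the table is the union of all annotated exons. Reads were not used here.

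Counts were scaled by TMM and tested with edgeR 4.0.16 in R 4.3.3 after filterByExpr (minimum count 10), with terms sex, batch and diet, or the 4 groups and batch for single sexes, the interaction and vehicle females against males. A gene is called at a Benjamini-Hochberg adjusted p under 0.05 over all genes. DESeq2 1.42.0 was an alternative, with the others given at the end. The paper tested with DESeq2, and both are given where they differ. Log2 CPM used a prior count of 2 and length offsets a lowess span of 0.3. The edgeR and DESeq2 fits were tried on simulated counts with diet effects only. Those counts held no batch effect and no trend with exon length, so the trial does not bear on either.

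Members, lists and tests were chosen with earlier results of these data known. Genes named with values are the members called in a diet comparison, 8 fixed members (Gria1, Gria2, Grin1, Grin2a, Grin2b, Grm5, Dlg4 and Homer1), up to 4 called genes per list, and others named after their values were seen; 2 members, 1 of them called, are counted but not reported here by name. Promoter windows came from RefSeq (GRCm38.p6); 15 members had none, among them Cacng4, Gria1, Gria3, Grid1, Grik1, Grin2a, Grin2b, Grin3a, Grm4, Grm5, Neto1, Shank1 and Shank2.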

Additional observations from a re-analysis of the deposited data

Results flagged for a closer look

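Of 72 groups of 4 libraries examined, 16 genes and 2 measures of the libraries in 4 groups each, 7 held a library farther from the others than Dixon's 95% limit allows, and chance gives about 1 in 20. Dlg4 was at 944 CPM in FC4, against 681 to 724 in the other FC libraries. Grin2b was at 789 CPM in MC4, against 341 to 402 in the other MC libraries. Grm5 was at 99.4 CPM in FR2, against 149 to 155 in the other FR libraries, and at 252 CPM in MC3, against 164 to 178 in the other MC libraries. Neto1 was at 53.6 CPM in FC2, against 67.4 to 69.9 in the other FC libraries, and at 27.6 CPM in MR2, against 57.5 to 61.8 in the other MR libraries. The exon length slope was 0.1005 in MC4, against 0.0170 to 0.0268 in the other MC libraries. FC4 and MC4 belong to batch 2 of the labels, and MC4 is also the library with the choroid plexus markers.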

How the results depend on the processing

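The count of members called in both sexes together was 11, of which 10 fell and 1 rose. In either direction 2205 of 16553 genes were called in that fit, and 18.9% of genes with DESeq2. The percentages that follow are only the share of all genes that fell in each fit, 6.86% in the main one, where 6.46% rose. Counts that hold members that rose are therefore not like for like with them. The count was 14 with DESeq2 (9.82%), 11 with DESeq2 size factors in edgeR (7.2%), 16 with no filter on low counts (4.67%), 9 with DESeq2 and diet as the only term (4.62%), 3 without the batch term (0.55%), 6 in batch 1 alone (4.03%), 0 in batch 2 alone (0.017%), 3 with exon length offsets (2.82%), 0 with either the slope or the mitochondrial percentage as a covariate (0%), and 3 with a fold change of at least 1.5 (1.57%). Leaving out 1 library gave 5 to 13 (2.4% to 9.94%). Chosen after seeing the data, leaving out FR1, FR2 and MR2 gave 0 (0%) and leaving out MC4 and MR4 gave 6 (3.51%). With the replicate block in place of batch the count was 11 (4.73%), of which 9 were shared genes. The numbers do not pair the libraries by the labels (same-numbered pairs correlated at -0.157 to 0.675, 18 of 21 over 0.1), 12 of 16 libraries correlated best with their own number, and FR5 alone carries number 5.

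In females the count was 0 (0.0121% of all genes called), against 11 with DESeq2 (9.08%) and 14 with no filter. It was 8 in batch 1 alone, where FC1 to FC3 were compared with FR1 and FR2, libraries of low exon length slope. It was 0 to 10 with 1 library left out (10 without FR4, 4 without MR4, 3 without MR2, 1 without MR3). In males the count was 0 (0%), against 1 with DESeq2 (0.163%) and 3 with no filter. Between batches it was 10, against 6 with the slope, 4 with the mitochondrial share and 8 to 12 with 1 library left out. Counts without a share of all genes beside them are not read here as results about the members. The interaction and the comparison of vehicle groups gave 0 in each fit run.

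The median over the members turned to 0.0481 with the slope as a covariate, as did Gria1 (0.10), Grm5 (0.0481) and Homer1 (0.29). Homer1 was at 0.0372 with the mitochondrial share, Dlg4 at -0.14 in batch 2 alone, and Grin1 at 0.0482 in batch 1 alone, 0.12 with offsets and 0.0094 without MC4 and MR4. None of these was called. The cause was not tested. Depth limits Grin3b most, at under 1 CPM.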
